A study of Mus musculus with 18 samples.

Results

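The voltage-gated, inward rectifier, two-pore and calcium-activated potassium channels of the mouse are encoded by genes whose symbols begin with Kcn, and the binding sites of the transcription factors NFIA and NFIB at these genes are described here. Members were all autosomal protein-coding genes of the RefSeq mm10 annotation with such a symbol, 92 of 20661 genes; the X-linked Kcnd1 and Kcne1l were outside the rule. CUT&Tag, which tags the DNA around an antibody-bound protein in permeabilised cells, was carried out for NFIA and for NFIB in 3 stages of a mouse model of medulloblastoma, a cerebellar tumor. Granule neuron progenitors (GNP) came from cerebellum at postnatal day 7, hyperplasia, whose cells the protocol calls PNC, from postnatal day 28, and tumor cells from adult mice, all enriched on a Percoll density gradient, with 100000 cells per library. Each stage had 3 preparations, and each preparation 1 NFIA and 1 NFIB library, 18 libraries in all. The labels give a genetically engineered model but no allele, Cre line or strain, so it is not known here whether the GNP carried the tumor-driving change. Age and stage change together in the design and cannot be told apart.

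Potassium channels let potassium leave the cell, which sets the resting potential and ends each action potential. Most pore-forming subunits assemble as tetramers, and auxiliary subunits change their gating and their traffic to the membrane. Maturing granule neurons gain a leak current from two-pore channels and a fast transient current from channels of the Kcnd group. NFI proteins bind as dimers to a palindrome of the half-site TTGGC and act in granule neuron maturation. The full palindrome is written here as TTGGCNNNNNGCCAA.

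The measure throughout was the number of summits, the single-base peaks called by MACS2 in each library. The 30000 summits with the highest score on the 19 autosomes were taken from each library and assigned to the nearest protein-coding gene span within 100 kb. The NFIA and NFIB libraries of a preparation were summed, so a site called in both counts as 2. Target and preparation follow the sample titles, but the names of the deposited lists carry the other target in 6 and another replicate number in 12 of the 18 libraries. The lists held 49948 to 385466 summits per library, and 86.5% to 90.3% of the top summits fell to a gene. The second NFIA library of hyperplasia stood apart, with 20.4% of its top summits tied at the last score. Chromosome 6 held 6.82% to 7.43% of the top summits in tumor libraries, 5.04% to 5.33% in GNP and 5.29% to 5.47% in hyperplasia libraries, which bears on the 5 Kcn genes there. Summits near markers of cell types were counted too. The 9 granule lineage genes together took 87 to 90 per preparation in GNP, 68 to 81 in hyperplasia and 78 to 89 in tumor, with Gabra6 at 0 in GNP. The 4 microglial markers took 0 to 3, with Aif1 at 0 in every stage, and the 3 Purkinje cell markers 1 to 5, with Pcp2 at 0 in every stage. Glial markers also lay near summits, 4 astrocytic ones with 16 to 27, where Aqp4 had 0, and 3 oligodendrocyte ones with 16 to 25. So did 3 vessel markers with 17 to 25. The lists differ in length, so their sums are not comparable and do not tell granule from glial or vessel cells. A summit near a marker is not a measure of its expression.

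Of the 92 Kcn genes, 85 had at least 1 top summit. The other 7, Kcna7, Kcnj13, Kcnj14, Kcnmb3, Kcns1, Kcnu1 and Kcnv1, had none. A summit was found in all 9 preparations at 55 members, or 59.8%, against 43.2% of all genes. Kcn genes held 0.841% of assigned summits, make up 0.445% of genes and cover 1.06% of the summed gene span. Their median span was 34.5 kb against 17.5 kb for all genes. Counted inside the spans alone, Kcn genes had 2.87 summits per 100 kb and preparation, and all genes had 3.37. A smaller share of the family's summits lay at gene ends: 11.5% were within 1 kb of either end of the span, against 27.1% for all genes. Deeper inside lay 60.8%, against 46.4%. These are shares of all assigned summits and depend on the longer Kcn spans, so they do not give end summits per gene. In number, 468 summits lay at the ends of the 92 Kcn genes and 130759 at those of all 20661 genes. The 10 members with the most summits held 42.9% of the family's total. Per 100 kb of span, the 8 leading tested members were mostly short genes, and in 7 of them, all but Kcnh2, less than 50% of the summits lay inside the span. Kcna5 had 163, Kcne4 125, Kcnrg 90.9, Kcns2 82.6, Kcna10 73.3, Kcnk16 57.7, Kcna1 46.4 and Kcnh2 39.5.

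Sequences just before a transcription start of 4 members are shown because these promoter windows overlapped a region with a summit in every one of the 18 libraries and ranked best among such windows. They come from RefSeq (GRCm38.p6, which is mm10), are written 5′ to 3′ on the strand of the gene, and carry the half-sites TTGGC and GCCAA in capitals. Of the Kcnab2 window, chr4:152477563-152477698 on the minus strand is given, from its first to its last half-site. The rest is left out, since it may be transcribed from the neighbour Nphp4. The span of Nphp4 overlaps the stretch shown as well. The others are the 250 bases before the start, at chr2:127522095-127522344 for Kcnip3, chr5:24329592-24329841 for Kcnh2 and chr11:33993194-33993443 for Kcnip1, all on the minus strand. The Kcnh2 stretch lies inside the span of the gene, before an internal start. The Kcnip1 stretch straddles the end of its span, and those of Kcnab2 and Kcnip3 lie outside theirs.
Kcnab2: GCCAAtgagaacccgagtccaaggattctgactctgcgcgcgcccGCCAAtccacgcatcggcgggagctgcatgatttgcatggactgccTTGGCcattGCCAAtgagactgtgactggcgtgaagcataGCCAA
Kcnip3: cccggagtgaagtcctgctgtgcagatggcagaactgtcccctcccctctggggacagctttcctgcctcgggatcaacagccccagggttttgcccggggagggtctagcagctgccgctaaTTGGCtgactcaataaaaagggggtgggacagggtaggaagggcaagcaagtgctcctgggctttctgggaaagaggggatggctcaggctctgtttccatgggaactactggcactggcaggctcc
Kcnh2: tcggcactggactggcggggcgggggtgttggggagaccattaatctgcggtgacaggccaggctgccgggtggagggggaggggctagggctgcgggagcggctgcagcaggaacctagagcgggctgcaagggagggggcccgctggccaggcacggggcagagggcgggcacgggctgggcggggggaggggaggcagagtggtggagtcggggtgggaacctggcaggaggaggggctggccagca
Kcnip1: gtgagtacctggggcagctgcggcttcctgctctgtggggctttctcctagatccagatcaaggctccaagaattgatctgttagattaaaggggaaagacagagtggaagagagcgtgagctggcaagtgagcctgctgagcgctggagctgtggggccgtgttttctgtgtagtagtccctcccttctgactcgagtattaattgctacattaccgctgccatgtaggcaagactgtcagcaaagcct

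The Kcnab2 stretch, 136 bases long, held 5 half-sites, and a pair of them faced each other across 4 bases, where the full palindrome has 5. Kcnab2 encodes the cytoplasmic beta subunit that rides on Kcna channels. In 4 of its 5 half-sites the letters overlap CCAAT, the box read by another factor, NF-Y, which 37.3% of all promoter windows hold on one strand or the other. A summit lay in this window in 18 of 18 libraries. The stretch shown lies outside the Kcnab2 span and overlaps that of Nphp4, so summits in it were assigned to Nphp4. Being the shorter span, Nphp4 also takes the summits that fall inside both. There were 51 of 31396 autosomal windows, or 0.162%, with 5 or more half-sites. The Kcnip3 stretch held 1 half-site, whose letters overlap the CCAAT box too, read on the other strand. Its window held a summit in 16 libraries. The Kcnh2 and Kcnip1 stretches held no half-site, with a summit in the window in 11 and 9 libraries.

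Across the family, 68 members had a promoter window of 300 bases, 93 windows in all. The half-site was found on either strand in 39 of them, or 41.9%, against 46.7% of all windows. The full palindrome was in none of the 93, and in 12 of all windows, or 0.0382%. A window overlapped a region of summits at 25 members, and one hit in all 18 libraries at 7. No genome was at hand, so the letters under summits elsewhere were not read.

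The number of top summits at Kcn genes was close to constant over the 3 stages. Every preparation entered with 60000 top summits, so the family's number is a share of a fixed total. A change in the amount of binding over the whole genome cannot show in it. GNP preparations had 468, 449 and 437 summits at the family, hyperplasia preparations 435, 461 and 444, and tumor preparations 478, 444 and 441. The means were 451 ± 15.6, 447 ± 13.2 and 454 ± 20.6 (SD, n = 3), and the preparations of all 3 stages overlapped. The log2 ratio of means was -0.01 between hyperplasia and GNP, 0.01 between tumor and GNP and 0.02 between tumor and hyperplasia. GNP and hyperplasia share 2 dates in their titles: within the first, hyperplasia averaged 448 summits and GNP 458.5, and within the second the values were 444 and 437. Each tumor preparation has a date of its own, so date and stage cannot be told apart there. Single libraries had 210 to 244 Kcn summits.

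**Figure D1:**
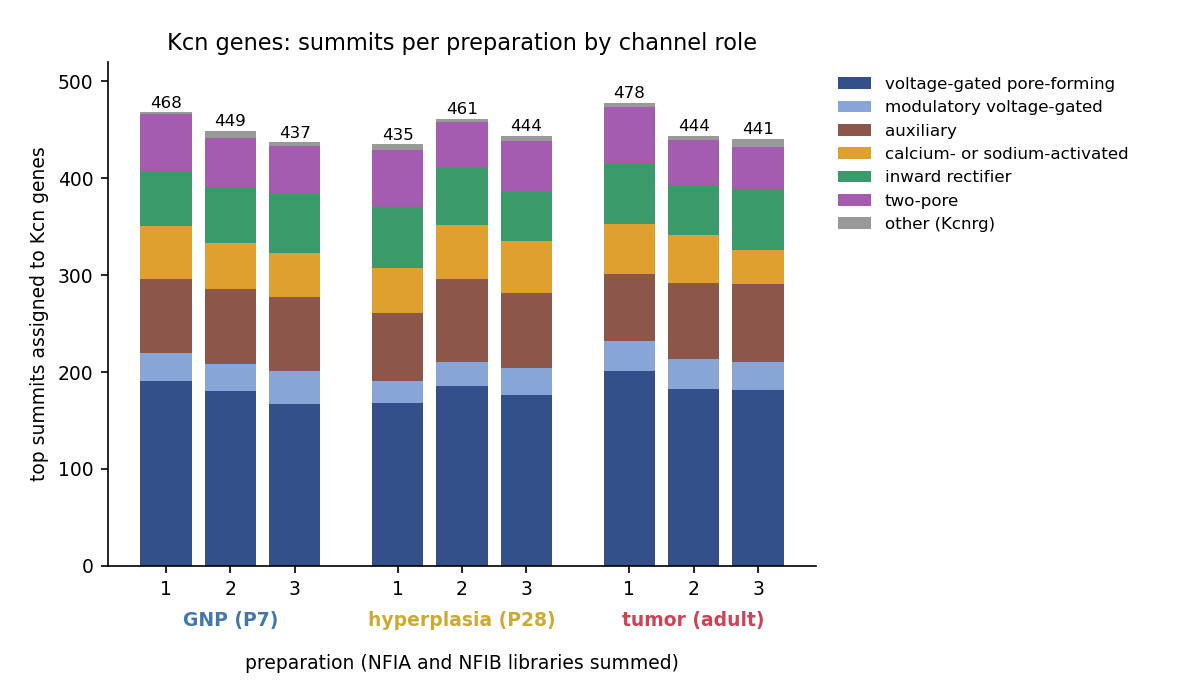
Top summits assigned to Kcn genes (y axis, number) in each preparation (x axis, by stage), with the bars divided by channel role and the total printed above each bar. The totals, each out of 60000 top summits, run from 435 to 478 with no stage apart from the others.

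Tests were run per gene with limma on log2(summits + 0.5) over the 8581 genes that averaged 2 or more summits per preparation, with Benjamini-Hochberg adjustment. Of the Kcn genes 58 entered (63.0%, against 41.5% of all genes), and 34 fell under the filter, 27 of them with some summits and a mean of 0.11 to 1.89. Kcna6, Kcnj8 and Kcnj9 entered with a mean of exactly 2, and Kcnd2 and Kcnk18 stayed out at 1.89. No Kcn gene passed an adjusted p of 0.05 between hyperplasia and GNP, where 0.0699% of all tested genes did. None passed between tumor and GNP, where 0.291% did, or between tumor and hyperplasia, where 0.0117% did. At an unadjusted p under 0.05 there were 8, 11 and 7 members, or 13.8%, 19.0% and 12.1%, against 13.3%, 14.9% and 11.4% of all genes. The lowest adjusted p of a Kcn gene was 0.156, 0.105 and 0.191 in the 3 comparisons. Median log2 differences over the tested members were -0.07, 0.03 and 0.02, against 0 for all genes each time. Nothing says that the preparations came from separate animals, so p-values measure the spread between these samples, which may be technical.

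**Figure D2:**
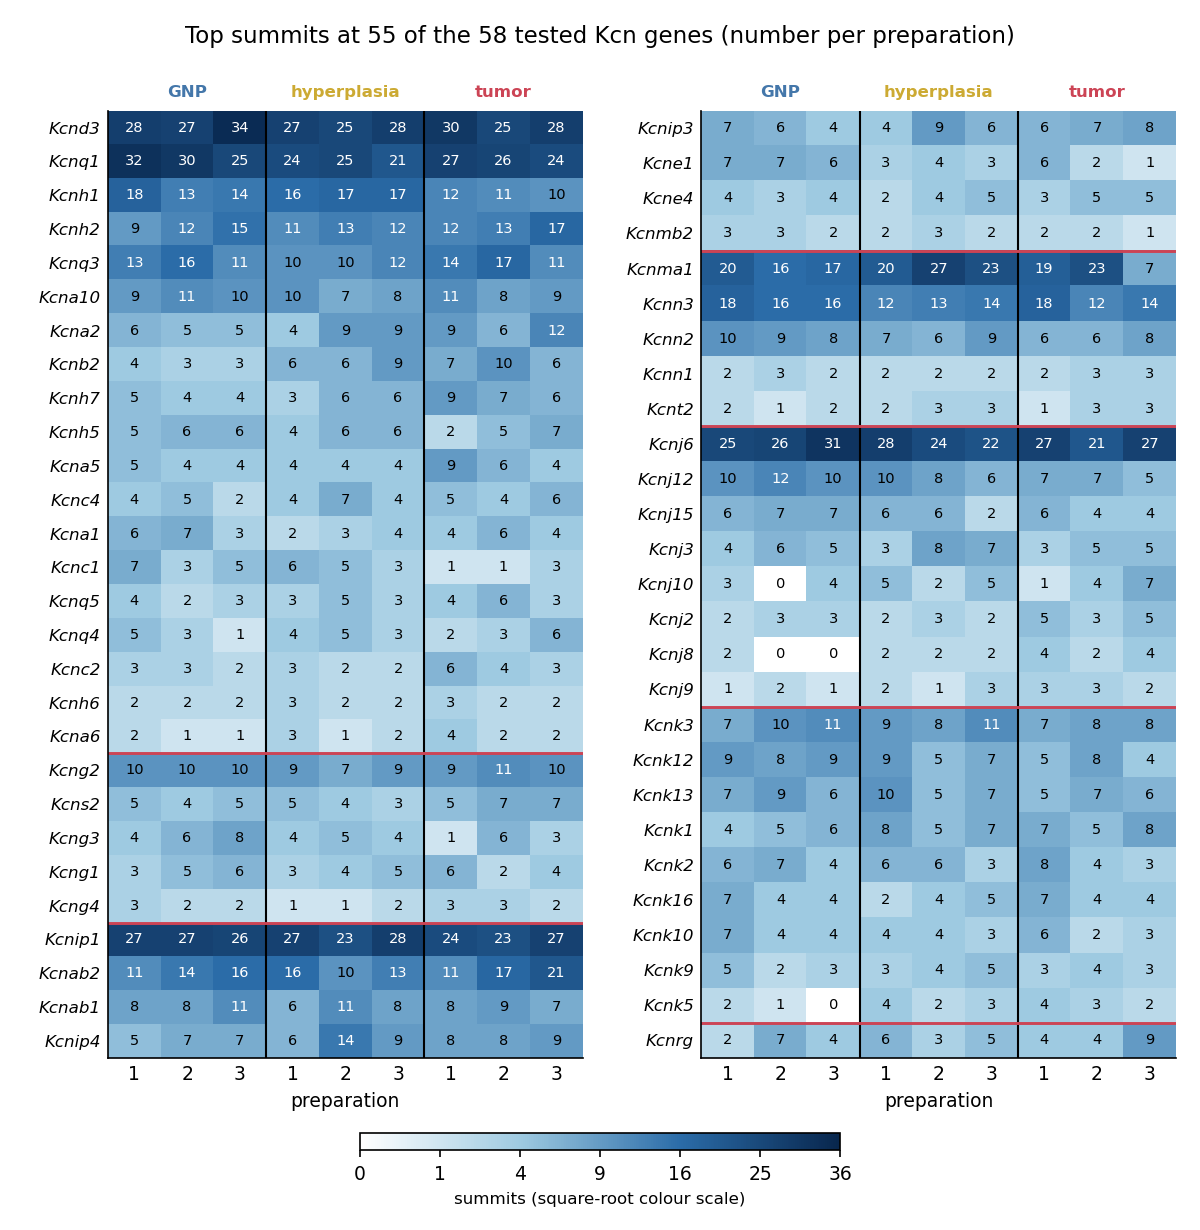
Number of top summits in each of the 9 preparations (columns, by stage) at 55 of the 58 tested Kcn genes (rows, grouped by channel role between red lines, with the mean falling within a role), on a square-root colour scale. Kcnd3, Kcnq1, Kcnip1 and Kcnj6 hold 21 summits or more in every preparation.

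Counting genes whose 3 preparations in one stage all lay above or all below those of another gave small numbers. Between hyperplasia and GNP, 2 of 58 members were higher and 4 lower, next to 5.29% and 5.86% of all tested genes. Between tumor and GNP 3 were higher and 2 lower, next to 6.23% and 5.87%. Between tumor and hyperplasia none was higher and 1 was lower, next to 4.37% and 3.72%. As shares of the 58 these are 3.45% and 6.90%, then 5.17% and 3.45%, then 0% and 1.72%, near or below the background. Of these 10 genes, 8 are described below with their roles. None of the 10 passed the adjusted test. Summed by subfamily, 3 of 60 stage comparisons over the 20 subfamilies with a summit did not overlap. Kcnn was lower in hyperplasia than in GNP, Kcne lower in tumor than in GNP and Kcns higher in tumor than in hyperplasia. No background was computed for such sums, so the 3 are not read as a result. Some of the 20 subfamilies hold 1 gene or few summits.

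Voltage-gated pore-forming subunits, 29 genes of the Kcna, Kcnb, Kcnc, Kcnd, Kcnh and Kcnq groups, held 191, 180 and 167 summits in GNP, 168, 186 and 176 in hyperplasia and 201, 183 and 182 in tumor. These ranges overlapped. Among the 22 tested, 13 had a positive and 9 a negative log2 difference between tumor and GNP, with a median of 0.19. Over all 58 tested Kcn genes 29 were positive and 28 negative.

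Kcnd3, a subunit of the fast transient current, had more summits than any other member, with 28, 27 and 34 in GNP, 27, 25 and 28 in hyperplasia and 30, 25 and 28 in tumor. The stages overlapped. Kcnd2, the related subunit known from granule neurons, had 2, 3 and 0, then 1, 2 and 2, then 5, 1 and 1, over a span of 514.5 kb. Of the 21 regions at Kcnd3, where a region is made of summits widened by 100 bp on each side, merged and hit in at least 3 libraries, 6 were hit in all 18 libraries, the most at any member. All 6 lay inside the gene, the best at chr3:105585801-105586180.

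Kcnb2 encodes a delayed rectifier. It had 4, 3 and 3 summits in GNP, 6, 6 and 9 in hyperplasia and 7, 10 and 6 in tumor. Every later preparation was above every GNP preparation. The log2 difference was 0.95 ± 0.23 (SE) for hyperplasia against GNP (limma adjusted p = 0.156) and 1.07 ± 0.23 for tumor against GNP (adjusted p = 0.105), the lowest adjusted p of the family in each. Its region at chr1:15651839-15652448, inside the gene, was hit in all 18 libraries, and the one at its low-coordinate end, chr1:15286826-15287329, in 2 of 6 GNP, 5 of 6 hyperplasia and 5 of 6 tumor libraries. The span of a predicted gene, Gm51415, overlaps that of Kcnb2.

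The Kcnh group holds the ether-a-go-go channels. Kcnh1 had 18, 13 and 14 summits in GNP, 16, 17 and 17 in hyperplasia and 12, 11 and 10 in tumor. Tumor was below both other stages in every preparation, with log2 differences of -0.42 ± 0.13 (SE) against GNP (limma adjusted p = 0.197) and -0.58 ± 0.13 against hyperplasia (adjusted p = 0.191). Its region at chr1:192442846-192443183 was hit in 5 of 6 GNP, 2 of 6 hyperplasia and 0 of 6 tumor libraries. Kcnh7 had 5, 4 and 4 summits in GNP, 3, 6 and 6 in hyperplasia and 9, 7 and 6 in tumor, so tumor lay above GNP (log2 difference 0.69 ± 0.27 SE, limma adjusted p = 0.297). Kcnh2, the channel of the rapid cardiac rectifier, had 9, 12 and 15, then 11, 13 and 12, then 12, 13 and 17. Its region at the promoter shown above, chr5:24329381-24330359, was hit in all 18 libraries and stood no lower than 7800 of 30000 in any of them.

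Kcnq3 is a subunit of the channel of the M current, which damps repeated firing. It had 13, 16 and 11, then 10, 10 and 12, then 14, 17 and 11. Kcnq1, a cardiac and epithelial channel, had 32, 30 and 25, then 24, 25 and 21, then 27, 26 and 24. One of its 13 regions, chr7:143296242-143296866, covered the high-coordinate end of Kcnq1ot1, an imprinted noncoding transcript that overlaps the gene, and was hit in 5 of 6 libraries of each stage.

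The Kcna genes, homologues of the fly Shaker channel, lie partly in clusters on chromosomes 3 and 6. Kcna10 had the most summits of the group, with 9, 11 and 10 in GNP, 10, 7 and 8 in hyperplasia and 11, 8 and 9 in tumor. Its 2 regions hit in all 18 libraries lay 28.7 kb and 7.10 kb outside the gene. Kcna1, an axonal channel, had 6, 7 and 3, then 2, 3 and 4, then 4, 6 and 4. Kcna5 had 5, 4 and 4, then 4, 4 and 4, then 9, 6 and 4. Its span is 3.0 kb, and 3 of its 4 regions were 48.7 kb to 97.0 kb away. The 5 members on chromosome 6 (Kcna1, Kcna5, Kcna6, Kcnd2 and Kcnj8) together had 17, 15 and 8 summits in GNP, 12, 12 and 14 in hyperplasia and 26, 17 and 15 in tumor. The median log2 difference between tumor and GNP was 0.61 for the 4 tested there, 0.30 for all 489 tested genes on that chromosome and 0.00 for the other Kcn genes. Of the 4, Kcna1 had -0.12 and Kcna5 0.44. Kcnj8 entered the test only through its summits in the later stages, so the filter itself can raise the median of the 4. The part of the chromosome's larger share of tumor summits in these values was not tested.

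The Kcnc group carries the fast delayed rectifiers of rapidly firing neurons. Kcnc1, strongly expressed in cerebellar granule neurons, had 7, 3 and 5 summits in GNP, 6, 5 and 3 in hyperplasia and 1, 1 and 3 in tumor. Its region at chr7:46433905-46434361 was hit in 5 of 6 GNP, 4 of 6 hyperplasia and 0 of 6 tumor libraries. The highest tumor value equalled the lowest of both other stages, and the log2 difference against GNP was -1.40 ± 0.44 (SE; limma adjusted p = 0.205).

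Modulatory voltage-gated subunits (10 genes of the Kcnf, Kcng, Kcns and Kcnv groups) form no channel alone and join those of the Kcnb group. They had 29, 28 and 34 summits in GNP, 23, 24 and 28 in hyperplasia and 31, 30 and 28 in tumor. The preparations of the 3 stages overlapped. All 5 tested members had a negative log2 difference between hyperplasia and GNP, as had 33 of all 58 tested Kcn genes. Kcng2 had 10, 10 and 10, then 9, 7 and 9, then 9, 11 and 10, so hyperplasia lay just below GNP (log2 difference -0.26 ± 0.12 SE, limma adjusted p = 0.411). Kcng1 had the region with the best place of any member: chr2:168248398-168248994, 11.1 kb outside the gene, was hit in all 18 libraries and ranked between 4 and 1971 of 30000. Kcns genes had 7, 4 and 7 summits in GNP, 6, 5 and 4 in hyperplasia and 8, 7 and 8 in tumor, the last 2 without overlap, mostly from Kcns2 with 5, 4 and 3 against 5, 7 and 7. Kcnf1 had 2, 1 and 1, then 0, 2 and 4, then 4, 0 and 1, and Kcnv2 had 1 summit, in the second tumor preparation.

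**Figure D3:**
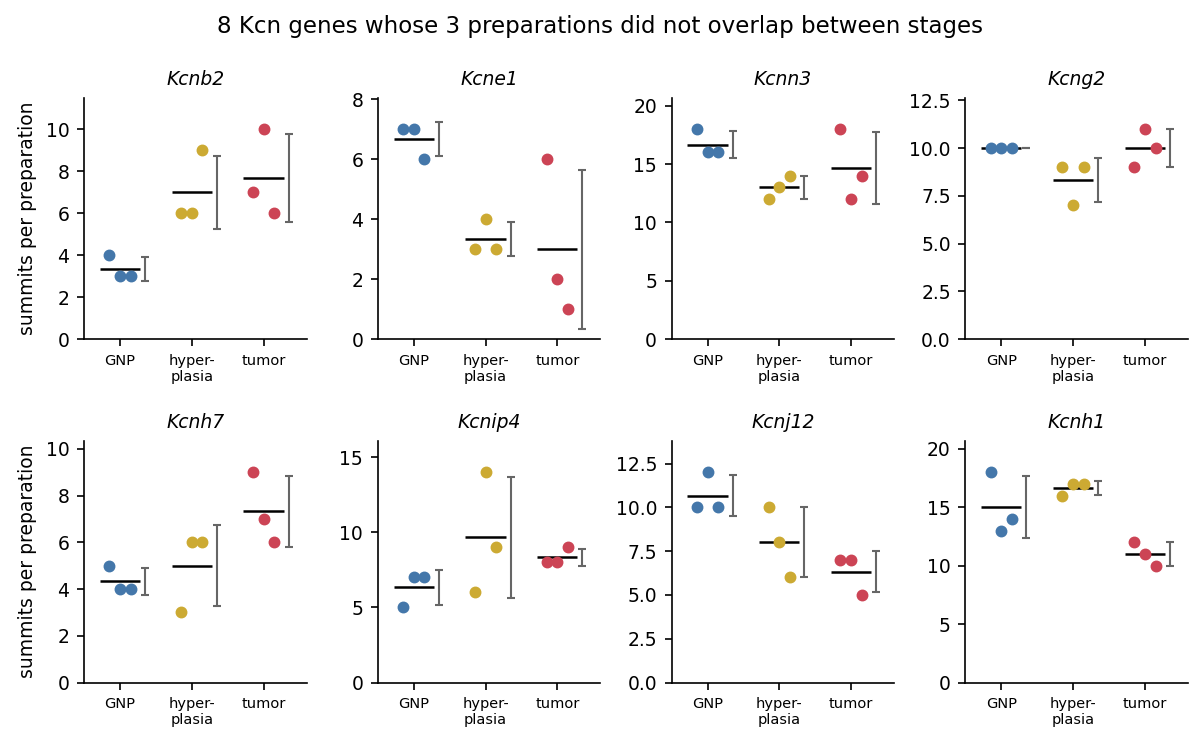
Summits per preparation (y axis, from 0) at 8 of the 10 Kcn genes whose 3 preparations did not overlap between at least 1 pair of stages; points are preparations, black lines means and grey bars SD (n = 3). Kcnb2 sits at 3 to 4 in GNP and at 6 to 10 afterwards, and Kcnh1 at 10 to 12 in tumor.

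Auxiliary subunits (15 genes of the Kcnab, Kcne, Kcnip and Kcnmb groups) had 76, 78 and 77 summits in GNP, 70, 86 and 78 in hyperplasia and 69, 79 and 81 in tumor. Kcnip1, a calcium-binding partner of the Kcnd channels, had 27, 27 and 26, then 27, 23 and 28, then 24, 23 and 27. Single sites within it differed more between stages than the total. Of its 15 regions, 4 were hit in all 18 libraries, among them the promoter shown above. The region chr11:33912070-33912557 was hit in 6 of 6 GNP and in 0 of 12 later libraries. The region chr11:33747558-33747875 was hit in 6 of 6 GNP, 0 of 6 hyperplasia and 5 of 6 tumor libraries, and its neighbour chr11:33751232-33751917 in 1, 6 and 4. The short gene Kcnmb1 lies inside the Kcnip1 span and takes the summits within its own.

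Kcnip4, a related partner spread over 1136 kb, had 5, 7 and 7 summits in GNP, 6, 14 and 9 in hyperplasia and 8, 8 and 9 in tumor. Tumor lay above GNP (log2 difference 0.38 ± 0.28 SE, limma adjusted p = 0.574). When every listed summit was used and scaled to equal totals in place of the top 30000, 6 of 66 tested members passed in that comparison, or 9.09%, all higher in tumor: Kcnip4 (log2 difference 1.42), Kcnt2 (1.47), Kcnd2 (1.23), Kcna4 (1.22), Kcnc2 (1.10) and Kcnn2 (0.95). In that setting 314 of all 7334 tested genes passed, or 4.28%, and the median log2 difference was -0.12 over tested Kcn genes and -0.15 over all genes. Kcnn2 had a log2 difference of -0.41 with the top 30000, so its direction turned.

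Kcne genes encode single-pass subunits such as Kcne1, which slows Kcnq1. Kcne1 had 7, 7 and 6 summits in GNP, 3, 4 and 3 in hyperplasia and 6, 2 and 1 in tumor. Hyperplasia lay below GNP (log2 difference -0.91 ± 0.48 SE, limma adjusted p = 0.466). Its region chr16:92348897-92349268, inside the gene, was hit in 6 of 6 GNP, 1 of 6 hyperplasia and 1 of 6 tumor libraries. The group as a whole had 12, 10 and 10 summits in GNP, 7, 11 and 9 in hyperplasia and 9, 7 and 7 in tumor. Kcnab2 had 11, 14 and 16, then 16, 10 and 13, then 11, 17 and 21 summits, beside those assigned to Nphp4 at the shared promoter. Kcnmb2, a beta subunit of the Kcnma1 channel, had 3, 3 and 2, then 2, 3 and 2, then 2, 2 and 1.

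Channels opened by calcium or sodium (8 genes) had 55, 47 and 45 summits in GNP, 46, 56 and 53 in hyperplasia and 52, 49 and 35 in tumor. Kcnma1, the large-conductance calcium-activated channel, had 20, 16 and 17, then 20, 27 and 23, then 19, 23 and 7. The third tumor preparation was the lowest of the 9. The region chr14:23856979-23857513 inside it was hit in 6 of 6 GNP and in no hyperplasia or tumor library. Kcnn3, a small-conductance calcium-activated channel, had 18, 16 and 16 in GNP, 12, 13 and 14 in hyperplasia and 18, 12 and 14 in tumor. Hyperplasia lay below GNP, with a log2 difference of -0.35 ± 0.15 (SE; limma adjusted p = 0.367). The Kcnn genes together had 31, 29 and 26 in GNP, 23, 24 and 25 in hyperplasia and 29, 22 and 25 in tumor. The Kcnn3 region chr3:89539913-89540534 was hit in all 18 libraries and ranked between 250 and 3637. Kcnt2, a channel opened by sodium, had 2, 1 and 2, then 2, 3 and 3, then 1, 3 and 3.

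Inward rectifiers (15 Kcnj genes) had 57, 58 and 62 summits in GNP, 63, 59 and 51 in hyperplasia and 63, 52 and 63 in tumor. Kcnj6, a channel opened by G proteins that granule neurons express, had 25, 26 and 31, then 28, 24 and 22, then 27, 21 and 27. A region 76.8 kb outside it, chr16:95074495-95074977, was hit in 5 of 6 GNP, 5 of 6 hyperplasia and 0 of 6 tumor libraries. Kcnj12, a strong rectifier that holds the resting potential, had 10, 12 and 10 in GNP, 10, 8 and 6 in hyperplasia and 7, 7 and 5 in tumor. Tumor lay below GNP, with a log2 difference of -0.72 ± 0.21 (SE; limma adjusted p = 0.179). Its region chr11:61025021-61025756 was hit in all 18 libraries and ranked between 135 and 2578, while chr11:61042723-61043168 was hit in 5, 0 and 1 of 6.

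Kcnj8, a pore subunit of ATP-sensitive channels, had 2, 0 and 0 summits in GNP, 2, 2 and 2 in hyperplasia and 4, 2 and 4 in tumor. The log2 differences against GNP were 1.55 ± 0.61 (SE; limma adjusted p = 0.330) for hyperplasia and 2.11 ± 0.61 (adjusted p = 0.182) for tumor. Without the first GNP preparation, which held the 2 summits, Kcnj8 passed in both, with limma adjusted p of 0.0447 and 0.0232. In that setting 0.198% and 0.279% of all tested genes passed. The GNP preparations left had 0 and 0, so the pass follows from the choice of the one left out and is not read as a result. Kcnj8 lies on chromosome 6 and met the filter, at a mean of exactly 2, only through the later stages. Kcnj10, the rectifier of astrocytes and Bergmann glia, had 3, 0 and 4, then 5, 2 and 5, then 1, 4 and 7. A region inside it, chr1:172364795-172365231, was hit in 0 of 6 GNP, 5 of 6 hyperplasia and 4 of 6 tumor libraries. Summed astrocyte and Bergmann glia markers had 20 to 24 summits in GNP, 22 to 27 in hyperplasia and 16 to 22 in tumor, and the part of such cells was not tested.

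Two-pore channels (14 Kcnk genes), which carry leak current, had 58, 51 and 48 summits in GNP, 59, 47 and 53 in hyperplasia and 58, 47 and 43 in tumor. Kcnk3, which with Kcnk9 carries the leak current of granule neurons, had 7, 10 and 11, then 9, 8 and 11, then 7, 8 and 8. Its region chr5:30606468-30606963 was hit in all 18 libraries and ranked between 57 and 7006. Kcnk9 had 5, 2 and 3, then 3, 4 and 5, then 3, 4 and 3. Kcnk12 had 9, 8 and 9, then 9, 5 and 7, then 5, 8 and 4, and a region at its gene end, chr17:87745257-87745680, was hit in 6 of 6 GNP, 0 of 6 hyperplasia and 2 of 6 tumor libraries. Kcnrg, a soluble protein that hinders channel assembly and the last member, had 2, 7 and 4, then 6, 3 and 5, then 4, 4 and 9, in a span that overlaps Trim13.

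A list of 12 Kcn channels known from granule neurons had 115, 113 and 124 summits in GNP, 117, 132 and 126 in hyperplasia and 119, 111 and 109 in tumor. Hyperplasia and GNP overlapped, and so did tumor and GNP. None of the 11 tested passed in any comparison. Kcnj10 and Kcnj16, the channels of glia, together had 3, 0 and 4, then 6, 4 and 5, then 4, 4 and 8.

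The union of the libraries held 37409 regions within 100 kb of a gene, of which 318 were nearest to 75 Kcn genes. Of these, 44 touched a gene end, 185 lay inside and 89 outside. A summit was present in all 18 libraries in 43 of them, at 32 genes, or 13.5%, against 15% of all regions. Regions were called gained or lost when hit in at least 5 of 6 libraries of one stage and at most 1 of 6 of the other. From GNP to hyperplasia 7 Kcn regions were gained, or 2.20%, against 2.08% of all regions near a gene, and 15 were lost, or 4.72%, against 2.62%. From GNP to tumor 4 were gained, or 1.26%, against 2.29%, and 15 were lost, or 4.72%, against 2.35%. Both comparisons use the same GNP libraries. From hyperplasia to tumor 2 were gained and 2 lost, or 0.629% each, against 1.25% and 1.05%. The larger share of losses against GNP depended on the number of summits taken. With 15000 per library, 5 and 4 Kcn regions were lost in hyperplasia and tumor, or 3.01% and 2.41%, against 3.03% and 2.62% of all regions near a gene. With all summits the shares were 1.09% and 1.56%, against 0.903% and 1.04%. With 6 of 6 libraries against 0 of 6 they were 1.57% and 0.629%, on 5 and 2 Kcn regions, against 0.441% and 0.326%. Without chromosome 6 they were 4.61% and 4.93%, against 2.67% and 2.44%. Leaving out each preparation gave 5.66% to 7.55% and 5.97% to 7.86%, against 3.72% to 5.02% and 3.79% to 4.82%.

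**Figure D4:**
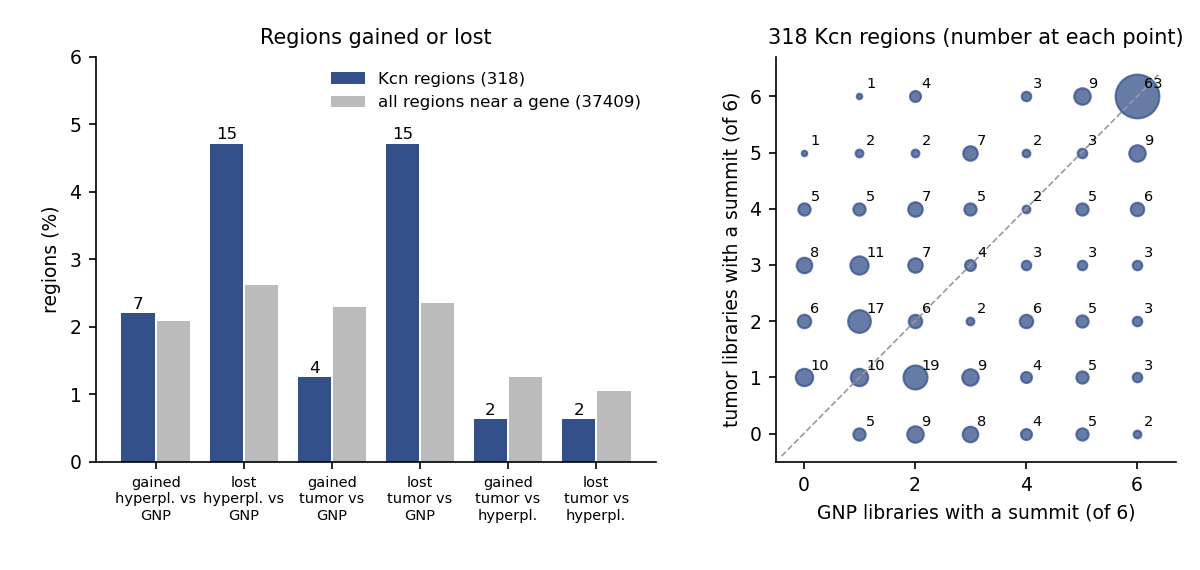
Left, share of regions gained or lost (y axis, percent) in each stage comparison for Kcn genes (blue, number above the bar) and for all regions near a gene (grey). Right, number of Kcn regions at each combination of GNP libraries (x axis, of 6) and tumor libraries (y axis, of 6) with a summit, where 63 were hit in all 12.

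None of the regions gained between GNP and a later stage touched a gene end. The region 45.5 kb outside Kcnh2, chr5:24273659-24274101, was hit in 1 of 6 GNP, 6 of 6 hyperplasia and 6 of 6 tumor libraries. One inside Kcnq1, chr7:143165752-143166277, was hit in 0, 6 and 3, and one 46.6 kb outside Kcnip4, chr5:49571672-49572300, in 0, 6 and 3. From GNP to tumor gains also lay at Kcna6 on chromosome 6 (1, 5 and 5) and at Kcnc2 (0, 4 and 5). Among the losses, chr16:95203039-95203444, 54.1 kb outside Kcnj15, was hit in 6, 0 and 1. Between hyperplasia and tumor the Kcnip1 region chr11:33747558-33747875 was a gain and the Kcnj6 region given above a loss.

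**Figure D5:**
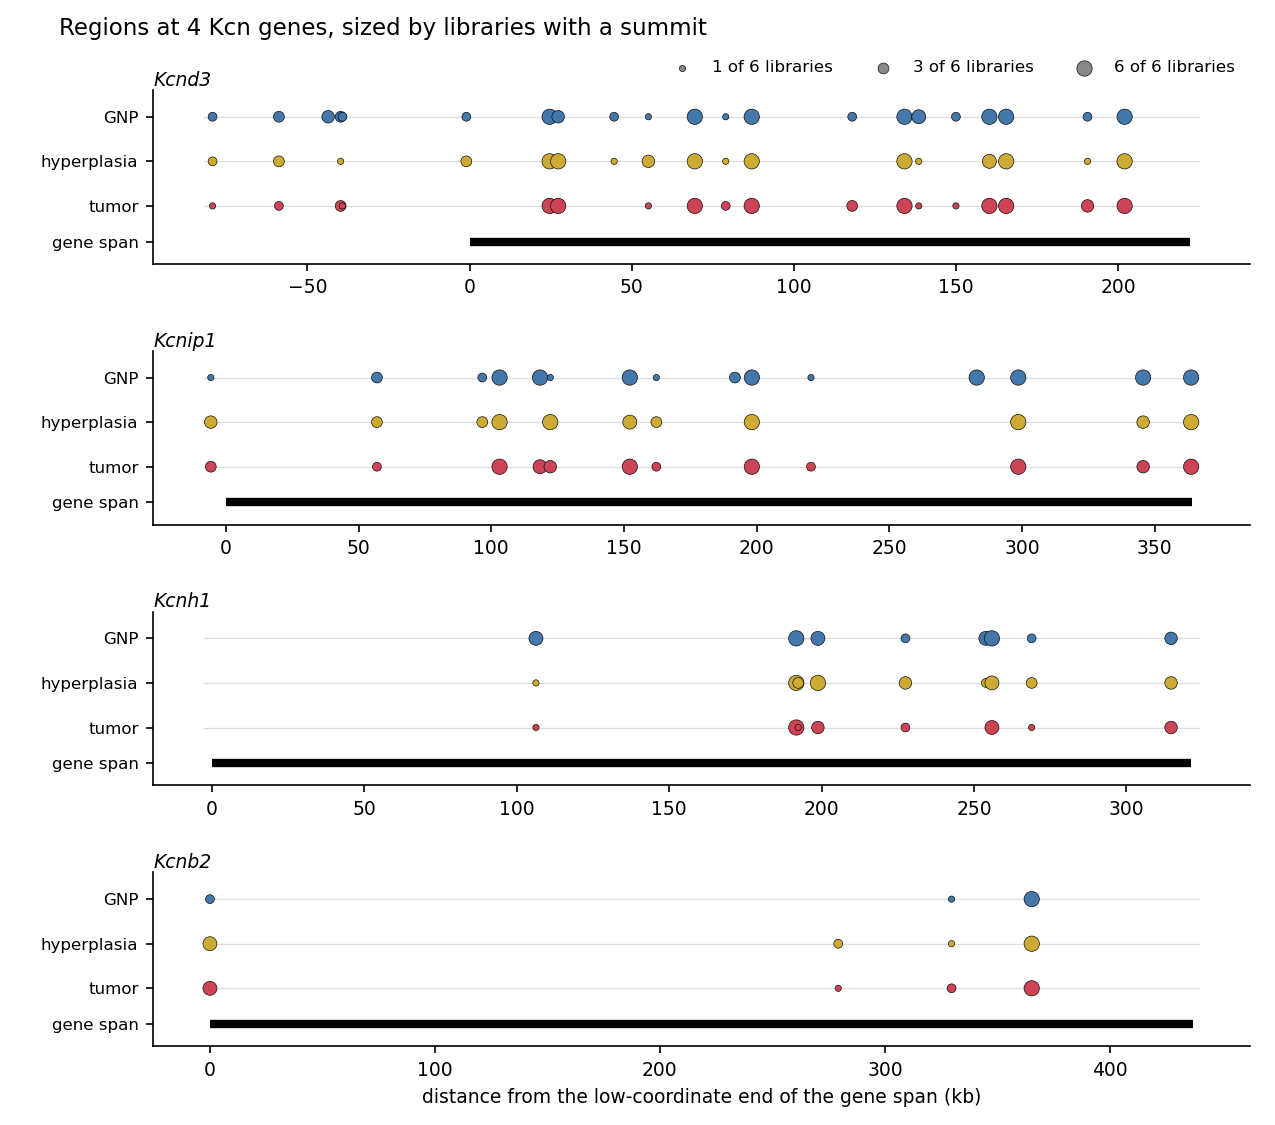
Regions along 4 Kcn genes, by distance from the low-coordinate end of the gene span (x axis, kb; black bar, span), with a row per stage and the area of a point proportional to the number of libraries with a summit, out of 6. Kcnd3 has 6 regions hit in all 18 libraries and Kcnip1 has 4.

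NFIA and NFIB libraries were compared by the targets in the sample titles, with which the names of 6 deposited lists disagree. By plain means over the libraries, 30 tested members had more summits with NFIA, 22 with NFIB and 6 the same number. In a limma fit over the 18 libraries with stage as a covariate none passed, where 0% of 8581 genes did. At an unadjusted p under 0.05 there were 4, or 6.90%, near the 5.72% of all tested genes, and they are named here after their values were seen. Kcnip4 had a mean of 4.78 summits per library with NFIA and 3.33 with NFIB, Kcna5 3.22 and 1.67, Kcnc4 2.89 and 1.67, and Kcnq3 5.33 and 7.33. The lowest adjusted p of a member was 0.823. This fit did not pair the NFIA and NFIB library of a preparation. With preparation in place of stage as the covariate, which pairs them, 0 of the 58 members and 0 of 8581 genes passed. The difference between targets by stage passed at no gene, with 2 Kcn genes among 348 at an unadjusted p under 0.05.

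Genes that work with these channels under other names, 22 in number, had 201, 200 and 185 summits in GNP, 186, 212 and 204 in hyperplasia and 205, 193 and 181 in tumor. Of the 17 tested none passed in any comparison. Adam22, a receptor that anchors Kcna channels, had 2, 4 and 4, then 8, 9 and 9, then 6, 3 and 5, so hyperplasia lay above both others. Cntnap2, an organiser of axonal Kcna channels, had 22, 28 and 25, then 20, 31 and 25, then 32, 36 and 36, and Abcc9, the regulatory partner of Kcnj8, had 2, 2 and 2, then 5, 2 and 1, then 7, 4 and 8. Both lie on chromosome 6. Dlg2, a membrane scaffold, had 29, 25 and 24 in GNP and 16, 21 and 20 in hyperplasia.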

How the data were processed

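Peaks were called per library from reads aligned with Bowtie2 to mm10, with MACS2, per the submitters' processing notes, without versions; whether a control library entered is not stated there. The authors deposited 1-base summits with the caller's score, the −log10 of a p- or q-value, which of them is not stated; the lowest in any list was 2.00. The deposited lists hold no reads, so depth is unknown. Stage and target came from titles; the deposited names carry the other target in 6 and another replicate number in 12 of 18 libraries. The third GNP and hyperplasia titles read merged.

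Ties in score were broken at random and distance ties went to the shorter span (bedtools 2.31.1, RefSeq GRCm38.p6). limma 3.58.1 was run on log2(summits + 0.5) over all 9 preparations, tested on simulated data. Preparations were not paired across stages in the main fit. Same-number correlations of deviations were low, from -0.002 to 0.077, but 6 of 9 preparations correlated best with their own number in both other stages. Named were members not overlapping between stages, those with most summits in all, per span and per subfamily, and regions present throughout, gained or lost. Members and lists were chosen with earlier results of these data known. Other listed summit counts, flanks, filters, pseudocounts, targets and left-out preparations were tried. Some genes are not reported here by name but stay in the fits and counts.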

Additional observations from a re-analysis of the deposited data

How the results depend on the processing

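Of the 58 tested members, 30 averaged at least 5 summits. The lower counts of the others limit their comparisons, and depth is unknown. No Kcn gene passed in the comparison of tumor and hyperplasia or of NFIA and NFIB under any alternative. Against GNP, leaving out a preparation gave 0 to 1 in hyperplasia and 0 to 1 in tumor. Tumor gave 6 of 66 with all summits scaled (4.28% of all genes). With a mean of at least 5 it gave 1 of 30, against 3.23% of all genes. That 1 was Kcnb2 (limma adjusted p = 0.0299), with a mean of 3.33 in GNP, 7 in hyperplasia and 7.67 in tumor. Kcnb2 met this filter only through the later stages, so its pass is not read as a result. Kcnb2 stayed higher than in GNP in 26 of 26 and 24 of 24 alternatives. Most of these reuse the same summits from which Kcnb2 was named, so they are not separate evidence. Kcnb2 was not alone in this. Kcnn3 and Kcnq1 stayed lower in hyperplasia in 26 of 26, and Kcnh1 lower in tumor in 24 of 24. With the replicate block 0 Kcn genes passed, and 1, 1 and 0 of all genes; of 9 preparations 6 correlated best with their own number.

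The family's log2 ratio for hyperplasia against GNP was -0.075 with 15000 summits, 0.070 with NFIA and -0.102 with NFIB libraries alone. For tumor against GNP it was -0.055 with all summits scaled, -0.049 with scores of at least 5, 0.072 with NFIA and -0.053 with NFIB. For tumor against hyperplasia it was 0.108 with 15000 summits and -0.047 with all scaled. Leave-one-out ranges were -0.038 to 0.012, -0.029 to 0.036 and -0.014 to 0.048. The cause was not tested.

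Regions gained and lost, for hyperplasia then tumor against GNP, then tumor against hyperplasia, were 2 and 5, 1 and 4, 1 and 1 with 15000 summits (of all regions near a gene 2.12% and 3.03%, 2.53% and 2.62%, 1.53% and 1.26%; Kcn regions numbered 166). With 6 of 6 against 0 of 6 libraries they were 2 and 5, 0 and 2, 0 and 0 (0.629% and 1.57%, 0 and 0.629%, against 0.356% and 0.441%, 0.422% and 0.326%). With all summits 14 and 9 were gained against GNP, and 5 gained and 11 lost from hyperplasia to tumor (1.09%, 0.700%, 0.389% and 0.856%, against 1.25%, 1.00%, 0.403% and 0.631%). With the second NFIA list of hyperplasia left out, 13 were gained in hyperplasia (4.09%, against 3.47% of all regions near a gene) and 4 lost in tumor against it (1.26%, against 2.14%). Leaving out a preparation, which loosens the rule to 3 of 4 libraries in that stage, gave 10 to 19 gained and 18 to 24 lost, then 8 to 15 and 19 to 25, then 3 to 10 and 5 to 10. Over all regions near a gene this gave 3.08% to 5.11% gained and 3.72% to 5.02% lost, then 3.36% to 5.28% and 3.79% to 4.82%, then 2.16% to 3.62% and 1.89% to 3.54%, so the background rose too. Of the alternative values for the family, the called genes and the regions, 151 counted as unchanged and 57 as moved. Of single roles and subfamilies, 880 values moved by less than the spread and 89 by more.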
